A study of Mus musculus with 6 samples.

Results

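The laminins, integrins and basement membrane genes described here are a set of 36 genes chosen by name for their role. The genes were chosen with earlier results of these data known, and were found by symbol in a table of 25164 genes. They were measured in whole ovaries of C57BL/6 mice at day 1. All 36 were in the table, and 27 of them reached a mean of 1 FPKM over the libraries and were tested among 12442 genes. FPKM is a count of sequenced fragments divided by transcript length and by library size, so it is a level per length. Of the 6 libraries, 3 came from mice labelled hnRNPL flox/flox;Stra8-cre (cKO) and 3 from mice labelled wild type. Stra8-cre drives Cre recombinase in germ cells, so the floxed gene is targeted there and not in the somatic cells of the ovary. The labels do not say whether the wild type animals carried a floxed allele or the transgene, nor whether each library is a different animal. The p-values therefore measure the spread between these libraries, which may be technical. The protocol shared by both groups also speaks of a hormone challenge, with no agent, dose or time. In whole tissue, fewer cells of a type and less RNA per cell cannot be told apart.

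Basement membranes are thin sheets of matrix under epithelia and around follicles, vessels and muscle cells. Laminins, each made of an alpha, a beta and a gamma chain, form one network, type IV collagen forms another, and nidogen and the proteoglycans perlecan and agrin connect them. Cells hold on to these sheets through dystroglycan and through integrins, which are receptors of an alpha and a beta subunit. In the newborn ovary a basement membrane surrounds the germ cell cysts and, as they break up, each primordial follicle.

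The best known integrin recognition site in the matrix is the triplet of arginine, glycine and aspartate (RGD). Its codons are shown because Fn1, the member with the smallest p, carries the classical site, and because several RGD-binding integrins are described further on. An in-frame search of the longest coding sequence of each of the 17 members that are not integrins, in GENCODE M21 (GRCm38), found such codons in 8 of them (Lama1, Lama3, Lama4, Lama5, Nid1, Nid2, Hspg2 and Fn1). For 4 of these, one site with its flanks in the spliced transcript reads as follows, with the RGD codons in capitals.
Fn1: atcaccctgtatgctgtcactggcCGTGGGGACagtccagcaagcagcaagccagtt
Nid1: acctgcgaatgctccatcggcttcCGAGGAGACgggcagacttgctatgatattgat
Lama5: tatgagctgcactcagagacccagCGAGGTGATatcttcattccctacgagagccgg
Hspg2: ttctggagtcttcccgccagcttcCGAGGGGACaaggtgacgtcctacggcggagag
The capitals lie in coding exons. They stand at chr1:71606746-71606754 on the minus strand for Fn1 (exon 30, codon 1614 from the start codon) and at chr13:13483769-13483777 on the plus strand for Nid1 (exon 9, codon 700). For Lama5 they stand at chr2:180190372-180190380 on the minus strand (exon 39, codon 1723), and for Hspg2 at chr4:137518798-137518806 on the plus strand (exon 23, codon 998). Fn1 and Lama5 each held 2 such sites and the other 6 genes held 1. A codon match is a description of the sequence, and not every such site is open to integrins in the folded protein.

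Some facts of the libraries bear on all values. Depth, estimated from the smallest FPKM steps, was lowest in cKO replicate 1, at about 7200000 fragments, and highest in wild type replicate 1, at about 14500000. Short transcripts stood high in cKO replicate 1, whose values deviated from the mean of each gene by a median of 0.35 on the log2 scale in the shortest sixth of genes and 0.06 in the longest sixth. Hnrnpl itself was measured at 100.5, 81.5 and 85.2 FPKM in cKO replicates 1, 2 and 3 and at 104, 93.8 and 102 FPKM in wild type replicates 1, 2 and 3. Its groups overlapped (limma adjusted p = 0.571). After median-of-ratios scaling it stood at 84.2 to 87.5 in cKO and 95.4 to 107.4 in wild type, without overlap (log2 fold change -0.26, limma adjusted p = 0.15), and a gene-level value in tissue that also holds somatic cells is a weak check of the labels. Ovarian markers were present: Foxl2, which marks pregranulosa cells, averaged 73.8 ± 11.3 FPKM in cKO against 59.2 ± 1.44 FPKM in the wild type (SD, n = 3).

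None of the 27 tested members passed the test with FPKM as deposited (limma on log2(FPKM + 1), Benjamini-Hochberg adjusted p under 0.05). Over all tested genes 0.121% passed, 0.0723% as lower and 0.0482% as higher. At an unadjusted p under 0.05 there were 10 members, all lower in cKO: Lama4, Lama5, Nid1, Nid2, Hspg2, Fn1, Itga5, Itga8, Itgav and Itgb8. They are 37% of the tested members, against 4.26% of all tested genes that were lower at that level. Because the members were chosen with earlier results of these data known, the shares set side by side here are descriptions and no independent test. The log2 fold change was negative in 23 of 27 members, or 85.2%, and in 34.8% of all tested genes. The members' median was -0.20, against 0.08 over all tested genes. All cKO values lay below all wild type values in 12 members, against 7.03% of all tested genes, and all cKO values lay above in none of them, against 15.5%. An exact permutation test (two-sided) gave each of these 12 a p of 0.1, the smallest that 3 against 3 libraries allow.

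**Figure D1:**
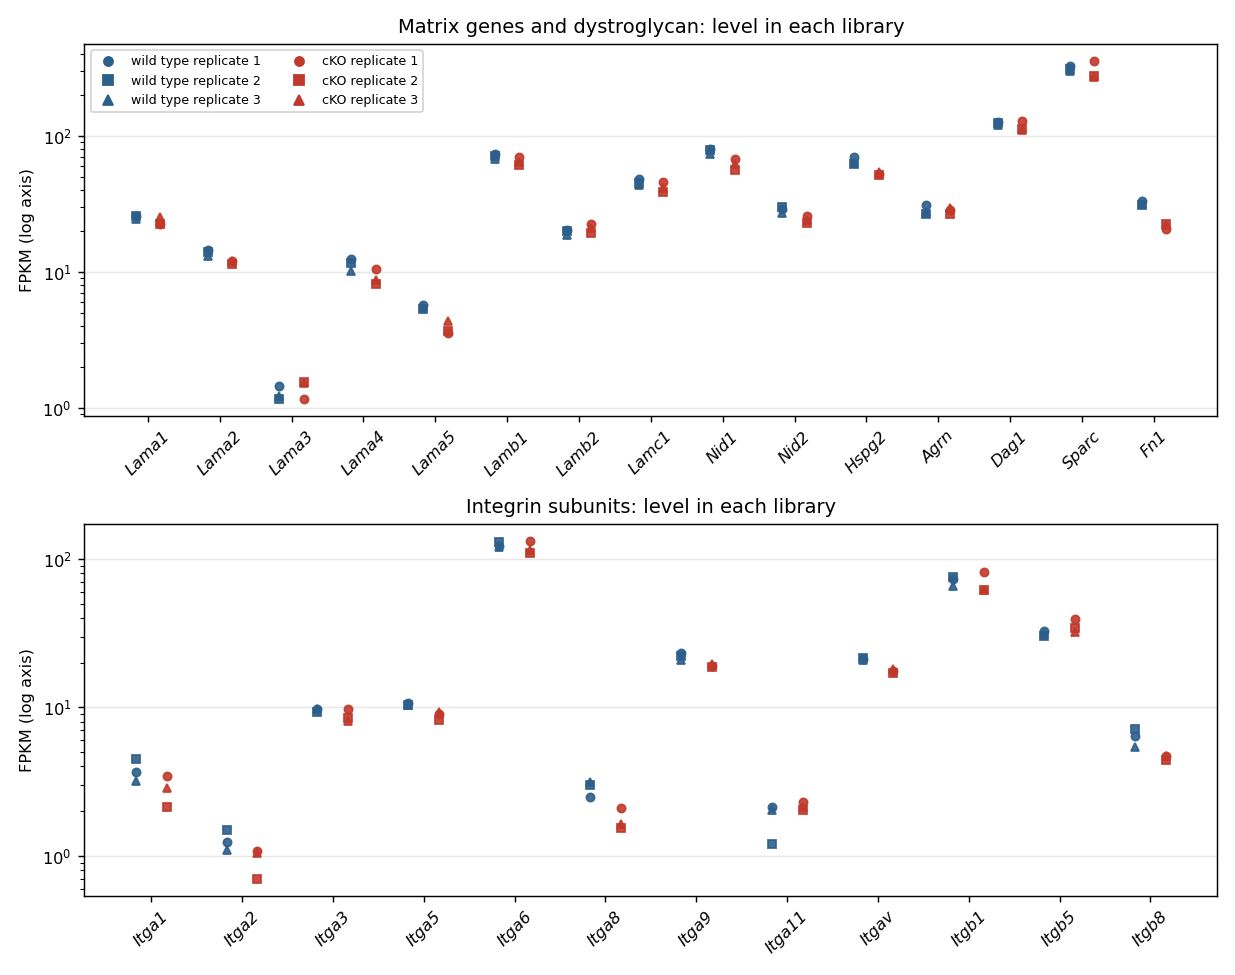
FPKM of the 27 tested members on a log axis, with matrix genes and dystroglycan above and integrin subunits below. Each point is 1 library, with wild type in blue and cKO in red, and circles, squares and triangles stand for replicates 1, 2 and 3. Sparc, Itga6 and Dag1 stand highest, and the red points of Fn1, Lama5, Hspg2 and Itga8 lie wholly below the blue ones.

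The count of calls depended on how the libraries were made comparable. Median-of-ratios scaling brings the typical gene to the same level in every library, and it divided cKO replicate 1 by 1.18 and the others by 0.949 to 0.989. It moved the median of all tested genes from 0.08 to 0.00. After it Fn1 passed as lower, as did 0.53% of all tested genes (0.764% passed as higher and 1.29% in either direction), and no other tested member did. The members' median was then -0.28, with 23 of 27 negative, where 50% of all tested genes were negative. A further 6 members, Lama2, Lamb1, Lamc1, Itga1, Itga3 and Itga9, came under an unadjusted p of 0.05, which made 16, or 59.3% of the tested members against 9.41% of all tested genes. The direction was the same under both scales in these 16 members. Groups that did not overlap, with cKO below, were then found in 20 members, or 74.1% (13% of all tested genes, and 25.6% in either direction). The members added by scaling were Lama4, Lamb1, Lamc1, Dag1, Sparc, Itga1, Itga3 and Itga6. All cKO values of Itgb5 then lay above all its wild type values, as in 12.6% of all tested genes.

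**Figure D2:**
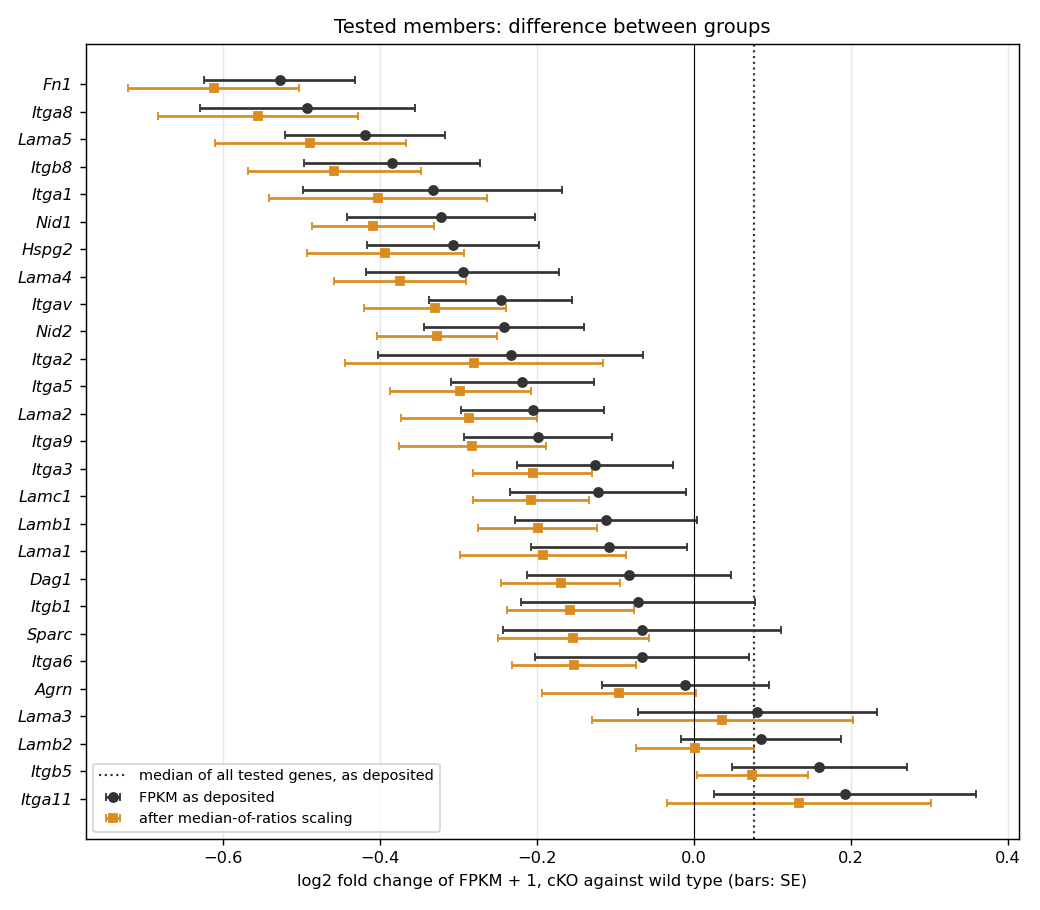
Log2 fold change of FPKM + 1, cKO against wild type, for the 27 tested members, sorted by the value from FPKM as deposited. Bars are standard errors, black circles are FPKM as deposited and orange squares are after median-of-ratios scaling. The dotted line is the median of all tested genes at 0.08, and 23 members lie to the left of 0.

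Among the laminin alpha chains, which carry the cell-binding domains, Lama1 was the most abundant and Lama3 the least. Lama5, a chain of mature epithelial and vascular membranes, was measured at 3.57, 3.68 and 4.31 FPKM in cKO and at 5.66, 5.31 and 5.46 FPKM in wild type (replicates 1, 2 and 3 in both). The groups did not overlap, and the mean in cKO was 29.6% lower. Its log2 fold change, -0.42 (SE 0.10), missed the threshold (limma adjusted p = 0.166, and 0.0954 after scaling). Lama5 lies on chromosome 2 from 180176373 to 180225904 (GRCm38). Lama4, a chain of vessel walls, stood at 10.5, 8.16 and 8.67 FPKM in cKO and at 12.4, 11.6 and 10.2 FPKM in wild type. Its groups overlapped, since cKO replicate 1 lay above wild type replicate 3, and the log2 fold change was -0.29 (SE 0.12, limma adjusted p = 0.342). Lama2, best known from muscle and nerve, stood at 12, 11.4 and 12 FPKM against 14.4, 13.9 and 13 FPKM, with no overlap and -0.21 on the log2 scale (SE 0.09, limma adjusted p = 0.362). Lama1, an early embryonic chain, stood at 22.6, 22.2 and 25.1 FPKM in cKO and at 25.7, 25.5 and 24.3 FPKM in wild type. It overlapped, with a log2 fold change of -0.11 (limma adjusted p = 0.625). Lama3, a skin-type chain, stood between 1.15 and 1.55 FPKM in all 6 libraries, and its log2 fold change of 0.08 turned to -0.05 under TPM rescaling.

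The makeup of the alpha chains can be read within each library, where no scaling between libraries enters, though a trend with transcript length still can. Lama1 held 45.3%, 47.3% and 48.7% of the summed alpha-chain FPKM in cKO, against 43.2%, 44.4% and 44.9%. Lama5 held 7.16%, 7.83% and 8.35% in cKO, against 9.48%, 9.23% and 10.1%. The share of Lama1 was thus higher and that of Lama5 lower in every cKO library, while the shares of Lama2, Lama3 and Lama4 overlapped. The summed alpha-chain FPKM was 47.0 to 51.6 in cKO and 54.1 to 59.7 in wild type, without overlap. The longest transcripts have 11388 bases for Lama5, 9526 for Lama1 and 6046 for Lama4. In cKO replicate 1, which stood high for short transcripts, Lama4 had its highest cKO share, 21.1%. Lama1 and Lama5 had their lowest cKO shares in that library. These shares are descriptions and were not tested.

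Lamb1 and Lamc1 were more abundant than any alpha chain. With FPKM as deposited the levels of the tested beta and gamma chains overlapped between groups. After median-of-ratios scaling those of Lamb1 and Lamc1 did not. Lamb1, the widespread beta chain, stood at 69.9, 61.2 and 64.3 FPKM in cKO and at 73.6, 70.6 and 67.2 FPKM in wild type (log2 fold change -0.11, SE 0.12, limma adjusted p = 0.667). Lamb2, the beta chain of mature vessel, muscle and kidney membranes, stood at 22.4, 19.2 and 20.9 FPKM against 20.3, 19.9 and 18.5 FPKM (log2 fold change 0.09, SE 0.10). After median-of-ratios scaling the log2 fold change was 0.00 for Lamb2 and -0.20 for Lamb1, and for Lamb2 it turned to -0.02 under quantile normalization and -0.12 under TPM rescaling. The makeup of the beta chains differed without overlap. Lamb1 made up 75.4%, 75.9% and 75.2% of the beta-chain FPKM in cKO, against 78.3%, 77.9% and 78.2%. The share of Lamb2 was 24.1 ± 0.308% in cKO and 21.7 ± 0.218% in wild type (SD, n = 3). Within a library, the ratio of Lamb1 to Lamb2 was 3.08 to 3.18 in cKO and 3.55 to 3.63 in wild type. This pair was picked from several after the values were seen, and its ratio was not tested. The longest transcripts of Lamb1 and Lamb2 are of nearly equal length, 5784 and 5629 bases.

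**Figure D3:**
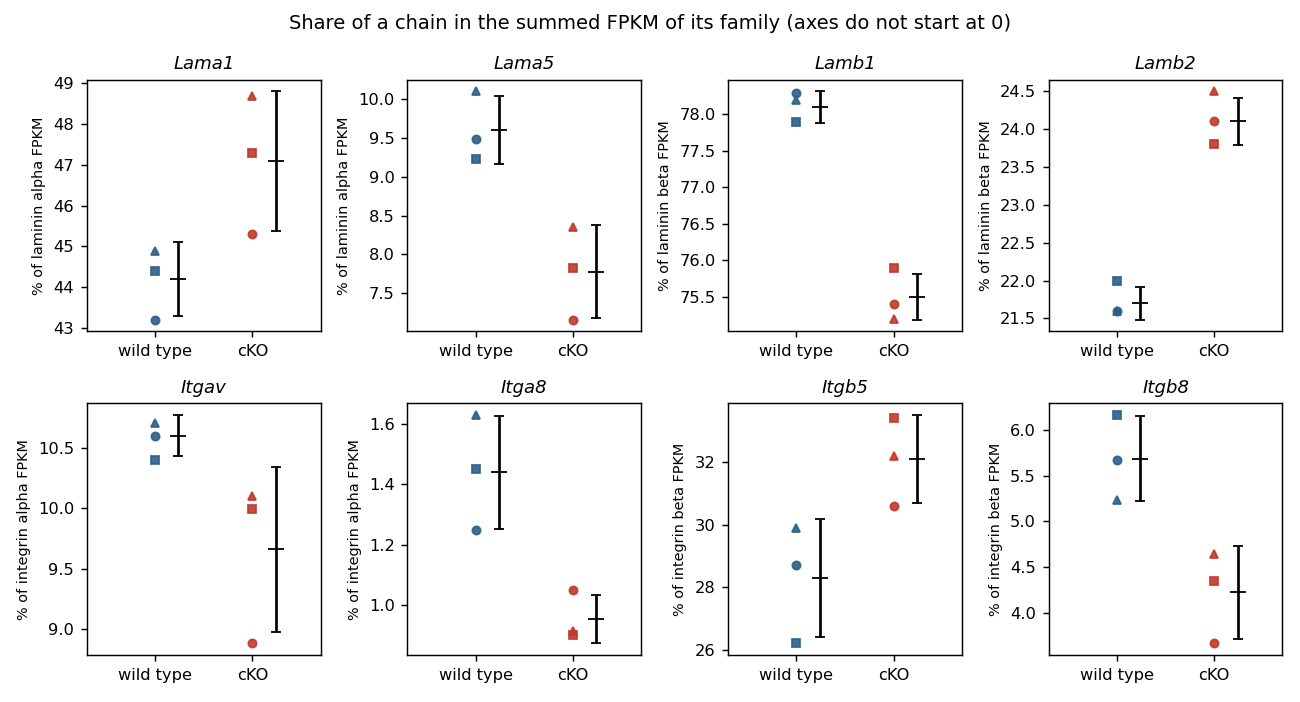
Share of a chain in the summed FPKM of its family, in percent, for 4 laminin chains above and 4 integrin subunits below. Points are single libraries (circle, square and triangle for replicates 1, 2 and 3), the bars beside them are the mean and SD of 3 libraries, and the axes do not start at 0. In all 8 panels the cKO and wild type points do not overlap, with Lama1, Lamb2 and Itgb5 higher in cKO and the other 5 lower; not every chain is drawn.

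The promoters of this beta-chain pair are shown because the 2 genes encode alternative partners whose balance differed between the groups. RefSeq (GRCm38.p6) gave windows from 250 bases before to 50 bases after the start for 25 of the 36 members. Capitals mark the GC box GGGCGG, searched on both strands, with overlapping matches counted.
Lamb1: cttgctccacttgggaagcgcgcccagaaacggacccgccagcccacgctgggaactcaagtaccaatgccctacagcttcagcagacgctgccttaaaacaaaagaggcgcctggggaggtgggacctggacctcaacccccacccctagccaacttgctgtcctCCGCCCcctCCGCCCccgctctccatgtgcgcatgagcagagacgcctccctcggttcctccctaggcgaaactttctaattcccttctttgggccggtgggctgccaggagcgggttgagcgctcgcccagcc
Lamb2: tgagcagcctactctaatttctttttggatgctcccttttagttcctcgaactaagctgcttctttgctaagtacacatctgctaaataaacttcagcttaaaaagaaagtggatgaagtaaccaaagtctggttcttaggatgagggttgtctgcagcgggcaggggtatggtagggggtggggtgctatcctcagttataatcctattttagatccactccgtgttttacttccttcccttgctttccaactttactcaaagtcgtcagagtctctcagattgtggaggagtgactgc
The Lamb1 window, at chr12:31265043-31265342 on the plus strand, held 2 GC boxes and 63.7% G and C. The Lamb2 window, at chr9:108479612-108479911 on the plus strand, held 0 GC boxes and 44.0% G and C. A GC box was found in 35.7% of the 32851 windows of the table and in 17 of the 30 windows of members. The match describes these letters only.

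Lamc1, the common gamma chain, stood at 45.3, 38.5 and 41.2 FPKM in cKO and at 48.0, 44.7 and 43.5 FPKM in wild type, with overlap and -0.12 on the log2 scale (SE 0.11, limma adjusted p = 0.628). Lamb3 and Lamc3 were below the level tested. Lamc3 stood at 0.183 to 0.241 FPKM in cKO against 0.329 to 0.601 FPKM in wild type, and Lamb3 at 0.245 to 0.438 FPKM and 0.0920 to 0.215 FPKM. Neither overlapped between groups, in opposite directions, but they rested on an estimated 8.36 to 49.3 fragments for Lamc3 and 6.21 to 14.8 for Lamb3. With no filter on low values their adjusted p were 0.311 and 0.406 (limma).

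Nidogens link the laminin and collagen networks, and both had every cKO library below every wild type library. Nid1 was measured at 66.9, 56.3 and 61.8 FPKM in cKO and at 79.7, 79.0 and 73.0 FPKM in wild type. The cKO mean was 20.2% lower. Its log2 fold change, -0.32 (SE 0.12), missed the threshold (limma adjusted p = 0.301, and 0.0509 after median-of-ratios scaling). Nid2 stood at 25.7, 22.7 and 24.1 FPKM against 29.1, 30.1 and 27.1 FPKM, with -0.24 (SE 0.10) on the log2 scale (limma adjusted p = 0.346). Nid1 lies on chromosome 13 from 13437602 to 13512275.

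The 2 large heparan sulfate proteoglycans differed in their values. Hspg2, which encodes perlecan, was measured at 51.9, 51.0 and 53.9 FPKM in cKO and at 69.5, 62.2 and 63.3 FPKM in wild type. The groups did not overlap, and -0.31 on the log2 scale (SE 0.11) missed the threshold (limma adjusted p = 0.284, and 0.0977 after scaling). Agrn, which encodes agrin, stood at 28.5, 26.7 and 29.3 FPKM in cKO and at 31.0, 26.7 and 27.6 FPKM in wild type, with full overlap and a log2 fold change of -0.01 (SE 0.11), which turned positive in some fits that left out a library. The ratio of Hspg2 to Agrn within a library, a pair formed after the values were seen, was 1.82 to 1.91 in cKO and 2.24 to 2.33 in wild type. That ratio was not tested. Like the ratio of Lamb1 to Lamb2, it was picked from a longer list of pairs, and the rest are not given here. The longest transcript has 14187 bases for Hspg2 and 8612 for Agrn.

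Fn1, which encodes fibronectin, a matrix protein that binds the RGD-binding integrins, had the smallest p of the members with FPKM as deposited. Its log2 fold change of FPKM + 1 was also the largest on that scale, while the percent difference in FPKM was larger for the low gene Itga8. It was measured at 20.6, 22.5 and 22.1 FPKM in cKO and at 32.9, 31.2 and 31.3 FPKM in wild type. The highest cKO library lay well below the lowest wild type library, and the cKO mean was 31.6% lower. With FPKM as deposited the log2 fold change was -0.53 (SE 0.10) and missed the threshold (limma adjusted p = 0.0898). After median-of-ratios scaling it was -0.61 (SE 0.11) and passed (limma adjusted p = 0.043). Over all alternatives the adjusted p ran from 0.0227 to 0.392 and the log2 fold change from -0.75 to -0.46. The call after scaling held without cKO replicate 1 (0.0479) and ended when cKO replicate 2 (0.101) or 3 (0.0631) was left out, or wild type replicate 1 (0.214), 2 (0.145) or 3 (0.19). Fn1 lies on chromosome 1 from 71585473 to 71653280. An antisense gene, Apol7d, overlaps its exons in GENCODE M21, and no source used here says whether counting used strand. Antisense or other overlapping exons were also annotated for 12 other members, among them Nid1, Nid2, Lama2, Itga8 and Itgav.

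Sparc, a matricellular glycoprotein that binds collagen, had the highest level of the members. It stood at 355, 276 and 271 FPKM in cKO and at 326, 311 and 301 FPKM in wild type, with cKO replicate 1 above all other libraries. Its longest transcript has 2300 bases, the shortest of the tested members, and that library stood high for short transcripts. The log2 fold change was -0.07 (limma adjusted p = 0.879). After median-of-ratios scaling it was -0.15 with every cKO value below every wild type value (limma adjusted p = 0.427), and after correction for transcript length it was -0.18 (limma adjusted p = 0.264).

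The RGD split of the matrix genes, made after the values were seen and not tested, ran as follows. Of the 8 genes with RGD codons 7 had negative log2 fold changes, 5 had groups that did not overlap and the median was -0.30. Of the 7 tested genes without such codons 6 were negative, 1 had groups that did not overlap and the median was -0.08. After median-of-ratios scaling the groups did not overlap in 6 of 8 genes with RGD codons and in 5 of 7 without, so the counts lay much closer on that scale, with medians of -0.38 and -0.17. All these groups without overlap had cKO below. Over all tested genes such groups made up 7.03% with FPKM as deposited and 13% after scaling. In the longest sixth of tested genes they made up 14.7% with FPKM as deposited. The genes with RGD codons were also longer, with a median transcript length of 8921 bases against 5784.

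Dag1, which encodes the alpha and beta subunits of dystroglycan, the receptor for laminin, perlecan and agrin, was among the most abundant members. It stood at 128, 111.5 and 110.1 FPKM in cKO and at 127, 124 and 119 FPKM in wild type. Its highest and its lowest values were both from cKO, and the log2 fold change was -0.08 (limma adjusted p = 0.783). After median-of-ratios scaling it stood at 109 to 115.3 in cKO and 125.7 to 128.2 in wild type, without overlap. The log2 fold change was then -0.17 (limma adjusted p = 0.275).

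Of the integrin subunits, the laminin receptor alpha 6 and its partner beta 1 dominated. Itga6 held 66.5%, 64.2% and 63.9% of the summed integrin alpha FPKM in cKO, against 61.5%, 63.3% and 62.1%, so its share was higher in every cKO library. The longest transcript of Itga6 has 4310 bases, against 7054 for Itgav and 7020 for Itga9. The highest Itga6 share was in cKO replicate 1, which stood high for short transcripts. Itga6 stood at 133, 109 and 115 FPKM in cKO and at 122, 131 and 119.9 FPKM in wild type, and the groups overlapped (log2 fold change -0.07). Itgb1, the common beta subunit, stood at 82.3, 62.0 and 62.0 FPKM against 73.0, 76.1 and 66.2 FPKM, also with overlap (log2 fold change -0.07). In both genes cKO replicate 1 was the highest library. After median-of-ratios scaling the groups of Itga6 no longer overlapped, and those of Itgb1 still did. Itga3, the other widespread laminin receptor subunit, stood at 9.72, 8.52 and 8.06 FPKM against 9.79, 9.35 and 9.76 FPKM, with overlap and -0.13 on the log2 scale (SE 0.10, limma adjusted p = 0.567). Itga7 and Itgb4, laminin receptors of muscle and of epithelial anchoring junctions, were below the level tested. Itgb4 stood at 0.258 to 0.369 FPKM in cKO against 0.521 to 0.537 FPKM in wild type, without overlap, on an estimated 11.2 to 46.0 fragments (limma adjusted p = 0.322 with no filter). No receptor of the laminin-binding group therefore passed.

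The RGD-binding subunits included 4 of the 10 members with an unadjusted p under 0.05. Itga8, a subunit of mesenchymal and smooth muscle cells that binds nephronectin and fibronectin, was measured at 2.09, 1.54 and 1.65 FPKM in cKO and at 2.49, 3 and 3.14 FPKM in wild type. The cKO mean was 38.9% lower, without overlap, and -0.49 on the log2 scale (SE 0.14) missed the threshold (limma adjusted p = 0.201). Itgb8, the partner of alpha V in the activation of TGF-beta, stood at 4.67, 4.43 and 4.68 FPKM against 6.46, 7.11 and 5.44 FPKM, or -0.39 on the log2 scale (SE 0.11, limma adjusted p = 0.209). Itgav, the shared alpha subunit of that receptor and of others, stood at 17.7, 17 and 18.2 FPKM against 21.1, 21.5 and 20.8 FPKM (log2 fold change -0.25, SE 0.09, limma adjusted p = 0.294). Itga5, the classical fibronectin receptor subunit, stood at 9.08, 8.28 and 9.29 FPKM against 10.7, 10.4 and 10.4 FPKM (log2 fold change -0.22, SE 0.09, limma adjusted p = 0.337). In these 4 genes every cKO library lay below every wild type library.

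Itgb5, another partner of alpha V, had a positive log2 fold change, which turned to -0.04 under TPM rescaling. It stood at 39.1, 34.0 and 32.4 FPKM in cKO and at 32.6, 30.2 and 31.1 FPKM in wild type, with overlap and 0.16 on the log2 scale (SE 0.11, limma adjusted p = 0.531). Its share of the summed integrin beta FPKM was 30.6%, 33.4% and 32.2% in cKO, against 28.7%, 26.2% and 29.9%. Itgb8 held 3.66%, 4.35% and 4.64% in cKO, against 5.67%, 6.17% and 5.23%. The shares of these 2 partners of alpha V thus differed in opposite directions within the libraries, without overlap. Those of the beta subunits Itgb1, Itgb3 and Itgb6 overlapped between groups. Itgb5 has a longest transcript of 3282 bases and Itgb8 one of 8403 bases, and cKO replicate 1, which stood high for short transcripts, had the lowest Itgb8 share but also the lowest Itgb5 share of the cKO group. Itgb3 stood at 0.526 to 1.08 FPKM over all libraries. Itgb6, an epithelial subunit, stood at 0.0912 FPKM or less, was listed at 0 in wild type replicate 2 and rested on an estimated 3.07 fragments or fewer.

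The collagen receptors stood at low levels. Itga1 stood at 3.44, 2.12 and 2.86 FPKM in cKO and at 3.66, 4.48 and 3.18 FPKM in wild type, which is -0.33 on the log2 scale (SE 0.16, limma adjusted p = 0.403), with overlap. Itga2 stood at 0.696 to 1.08 FPKM in cKO against 1.09 to 1.5 FPKM, without overlap but with the nearest libraries almost level (log2 fold change -0.23). Itga11, a receptor of mesenchymal cells, stood at 2.03 to 2.3 FPKM and 1.2 to 2.13 FPKM (log2 fold change 0.19, negative after scaling without wild type replicate 2), and its share of the integrin alpha FPKM was 1.15% to 1.19% against 0.58% to 1.07%, and Itga10 was below the level tested. Itga9, which binds tenascin and other ligands, was the most abundant of the remaining alpha subunits. It stood at 19.1, 18.8 and 19.6 FPKM in cKO and at 23.3, 22.1 and 21.0 FPKM in wild type, without overlap (log2 fold change -0.20, SE 0.09, limma adjusted p = 0.385). Itga4 and Itgb7, subunits of leukocyte receptors, stood under 0.75 FPKM in all libraries.

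Genes of the same pathways outside the member set were read from 7 lists. With FPKM as deposited limma called 0 genes of these lists in either direction. At an unadjusted p under 0.05 there were 6 among the other basement membrane components, 5 among the other integrin ligands, 1 in the adhesion machinery, 1 among the other laminin receptors and 0 in the remaining lists. All of these had negative log2 fold changes except Thbs2 among the ligands. Of all tested genes 14.2% were under that p in either direction, and 4.26% as lower. Of 23 tested genes among the other basement membrane components 19 were negative, with a median of -0.14, and 10 had cKO below wild type without overlap, where 7.03% of all tested genes had. Fbln2, a fibulin of elastic and basement membrane matrix, stood at 6.05, 5.41 and 4.95 FPKM in cKO and at 9.12, 8.92 and 9.79 FPKM in wild type. Frem1, a matrix protein of epithelial adhesion in the embryo, stood at 15.4, 15.2 and 15.8 FPKM against 20.9, 21.7 and 21.1 FPKM. After median-of-ratios scaling both passed as lower (limma adjusted p = 0.0134 and 0.043), as the only 2 of the list, against 0.53% of all tested genes. Among other integrin ligands 9 of 16 were negative with a median of -0.08. Tnc, which encodes tenascin C, stood at 9.38, 9.06 and 9.27 FPKM against 13.5, 13.9 and 11.9 FPKM, and Postn, which encodes periostin, at 10.9, 9.96 and 10.2 FPKM and at 14.2, 14.4 and 12.5 FPKM. They too passed as lower after scaling (limma adjusted p = 0.0398 and 0.0459), the only 2 of their list. Fbln2, Frem1, Tnc and Postn also passed as lower after correction for transcript length (limma adjusted p = 0.0151, 0.0256, 0.0302 and 0.038). Thbs2, which encodes thrombospondin 2 and is named after its values were seen, had every cKO library above every wild type library, at 35.1, 29.6 and 30.2 FPKM against 24.6, 24.5 and 23.7 FPKM. Its log2 fold change was 0.36 (limma adjusted p = 0.213, and 0.0891 after scaling), and it passed as higher after correction for transcript length (0.0413).

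The other lists covered the inner side of the membrane, other surface receptors and proteases. Among the integrin adhesion machinery inside the cell 11 of 22 were negative with a median of -0.02, which after scaling became 17 of 22 and -0.10, and Tns2 and Kank1, an adapter and an adhesion scaffold, had the smallest p with log2 fold changes of -0.25 and 0.20. For the dystroglycan complex and its glycosylation 6 of 17 were negative with a median of 0.03 (11 of 17 and -0.05 after scaling), led by Utrn, or utrophin, at -0.17 and Sntb1, a syntrophin, at 0.21. Other laminin receptors and partners had 6 of 10 negative and a median of -0.04 (8 of 10 and -0.13 after scaling), and their syndecan and glypican members went both ways, with Gpc6 at -0.53 and Sdc4 at 0.33. Matrix proteases and their inhibitors had 12 of 13 negative and a median of -0.18 (12 of 13 and -0.26 after scaling), with Adamts1 at -0.23 and Htra1 at -0.26. None of these 4 lists had a gene that passed after scaling. The 7 integrin subunits outside the members, mostly of leukocytes and platelets, were all below the level tested.

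Transcript length moved with the results. Of the 27 tested members 17 fell in the longest sixth of tested genes, those of 5717 bases or more. In that sixth the median log2 fold change was 0.01, 47.2% of genes were negative and 14.7% had cKO below wild type without overlap, against a median of -0.20, 85.2% and 44.4% in the members. In the members this median deviation was -0.01, -0.17 and -0.08 in cKO replicates 1, 2 and 3 and 0.12, 0.10 and 0.00 in wild type replicates 1, 2 and 3. Each library was then corrected for a smooth trend of its deviation with length. This left the members' median at -0.19 with 23 of 27 negative, where the median of all genes was 0.00 and 49.7% were negative. At an unadjusted p under 0.05 there were 13 members, all lower, against 9.69% of all genes, and 19 members had every cKO value below every wild type value (12.9% of all genes, and 26% in either direction). Fn1 and Nid1 passed as lower after this correction (limma adjusted p = 0.0227 and 0.0451), as did 0.845% of all genes (1.85% in either direction). Nid1 passed with it in no fit that left out a library. The call of Fn1 held without cKO replicate 1 (0.0399) or 3 (0.0414) and was lost when cKO replicate 2 (0.06) or wild type replicate 1 (0.104), 2 (0.0724) or 3 (0.0994) was left out.

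**Figure D4:**
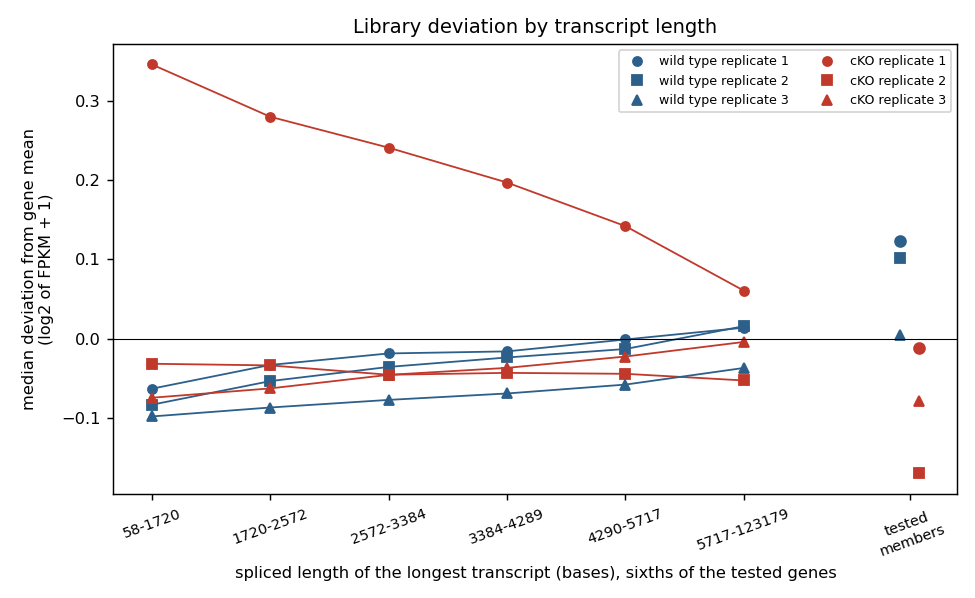
Median deviation of each library from the gene mean, on the log2 scale of FPKM + 1, in sixths of the tested genes by spliced transcript length, and for the tested members at the right. Red is cKO, blue is wild type, and symbols give the replicate. The line of cKO replicate 1 drops from 0.35 in the shortest sixth to 0.06 in the longest, and for the members all 3 cKO points lie below the 3 wild type points.

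The marker lists of 4 cell types stood lower in cKO, while that of pregranulosa and granulosa cells overlapped. The summed FPKM of 7 stroma and mesenchyme markers was 606 to 675 in cKO and 803 to 824 in wild type. That of 8 endothelial markers was 65.6 to 80.7 and 81.4 to 102.6, and that of 8 markers of pericytes and smooth muscle was 47.1 to 51.5 and 65.8 to 68.9. The 8 surface epithelium markers summed to 140.6 to 219.6 FPKM and 227 to 250.1 FPKM. In these 4 lists every cKO sum lay below every wild type sum. Most of the stroma sum came from Col1a1 and Col3a1, which are matrix genes themselves. Col1a1 stood at 209 to 218 FPKM in cKO and 269 to 295 FPKM in wild type, and Col3a1 at 254 to 292 and 336 to 350. Most of the surface epithelium sum came from Krt8, Krt18 and Krt19, and the levels of Krt8 and Krt18 overlapped between groups. Negative log2 fold changes were found in 7 of 7 tested stroma markers, 8 of 8 endothelial, 7 of 7 pericyte and 7 of 8 surface epithelium markers. The exception in surface epithelium was Cdh1, at 3.10, 2.63 and 2.12 FPKM in cKO and 1.43, 1.35 and 1.10 FPKM in wild type. Its groups did not overlap, and its log2 fold change was 0.65 (limma adjusted p = 0.148). Of all genes in these 4 lists Upk1b alone passed with FPKM as deposited (limma adjusted p = 0.0428), at -1.47 on the log2 scale. The smallest p of each list went with Pdgfra (-0.41) and Nr2f2 (-0.41) in stroma, Egfl7 (-0.43) and Robo4 (-0.44) in endothelium, and Acta2 (-0.46) and Myh11 (-0.63) in pericytes. They went with Upk1b and Upk3b (-0.97) in surface epithelium, all as log2 fold changes. After median-of-ratios scaling limma called 1 stroma, 3 surface epithelium and 1 pericyte marker as lower and 3 germ cell markers as higher. Over all tested genes 0.53% then passed as lower and 0.764% as higher. Pregranulosa and granulosa markers, whose cells lay down the follicle's own basement membrane, summed to 385 to 480 in cKO and 391 to 405 in wild type, with 3 of 8 negative, and were led by Foxl2 (log2 fold change 0.30) and Wt1 (-0.25). Germ cell markers summed to 156 to 279 in cKO and 123 to 134 in wild type, led by Tex15 (log2 fold change 0.96) and Dazl (1.28). Of the 8 germ cell markers 1 was negative with FPKM as deposited and 2 were after scaling. In 4 of the 8 every cKO library lay above every wild type library, against 15.5% of all tested genes. Ddx4 (-0.07), Nobox (0.08), Figla (0.13) and Mael (0.60, all as log2 fold changes) overlapped between groups. The part of these cell types in the members' values was not tested.

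**Figure D5:**
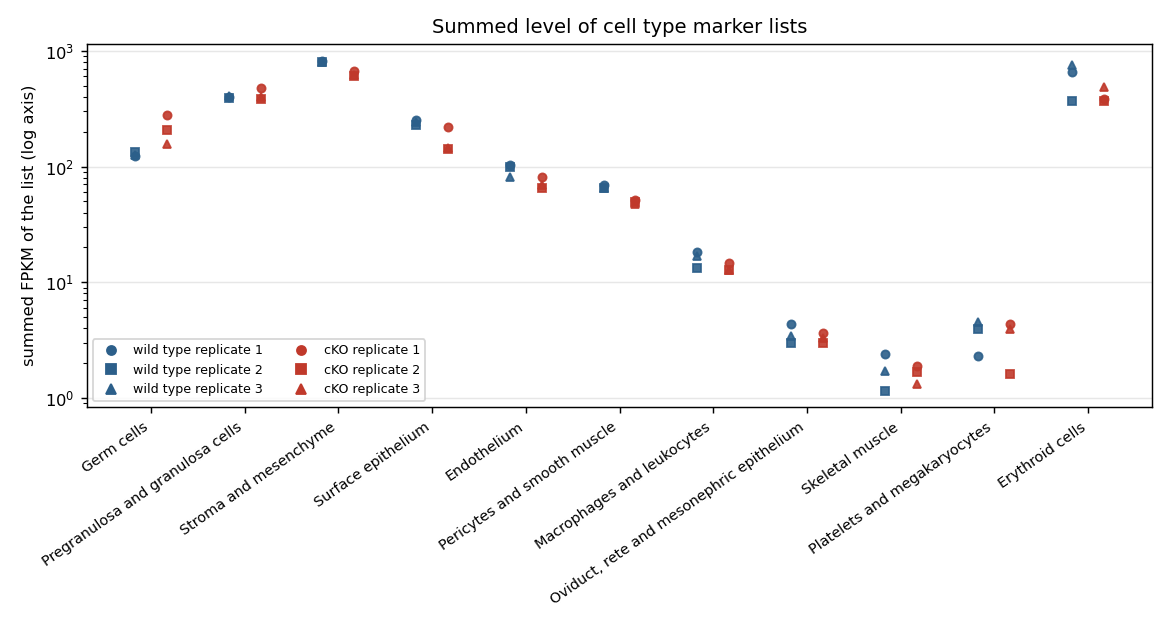
Summed FPKM of the 11 cell type marker lists reported here, on a log axis, 1 point per library, with wild type in blue and cKO in red. Stroma, surface epithelium, endothelium and pericyte sums lie lower in all 3 cKO libraries, germ cell sums lie higher, and the other 6 lists drawn overlap.

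Markers of other sources stood low or overlapped. The skeletal muscle markers summed to 1.15 to 2.41 FPKM over all libraries, with Myod1 at 0 in all of them. Macrophage and leukocyte markers summed to 12.6 to 14.8 in cKO and 13.2 to 18.3 in wild type, and platelet markers to 1.61 to 4.32 and 2.29 to 4.55. The oviduct, rete and mesonephric markers summed to 2.98 to 3.68 and 2.99 to 4.34, and the erythroid markers to 368 to 485 and 365 to 759. The smallest p of these lists went with Csf1r (-0.36) and C1qb (-0.37), Pax8 (-0.56) and Foxj1 (-0.04), and Alas2 (-0.58) and Hbb-bt (-0.55), as log2 fold changes, and Acta1 (0.07) and Pf4 (-0.22) were the only tested muscle and platelet markers.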

How the data were processed

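The authors deposited 1 table of FPKM values for 25164 gene symbols in 6 libraries. Per the submitters' processing notes the build was mm10, and the tools, listed with no roles, were featureCounts 2.0.6, HISAT2 2.2.1 and STAR 2.7.11a. The program behind the FPKM values, the annotation and any use of strand have no statement in the sources. Values were taken to log2(FPKM + 1) for the 12442 genes whose mean reached 1 FPKM, and compared with limma 3.58.1 in R 4.3.3 (intensity trend, two-sided, Benjamini-Hochberg over all tested genes, no block). This scale understates the change of low genes. Steps were tested on simulated data. The members and lists were chosen with earlier results of these data known. Members with an unadjusted p under 0.05, before or after median-of-ratios scaling, and the most abundant of each family are described in full, the 2 genes of smallest p in each list are named, and Hnrnpl is given whatever its value; 1 marker list is not reported here. Depth came from FPKM steps of 2437 genes with a single transcript of at least 1500 bases, assuming fragments of 200 bases, and covers counting error only. Length came from GENCODE M21 (98% of tested genes) and coordinates from RefSeq GRCm38.p6. Alternatives covered pseudocount, filter, scaling, length, trend, weights, the replicate block and left-out libraries.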

Additional observations from a re-analysis of the deposited data

How the results depend on the processing

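Of 966 alternative values of single members' log2 fold changes, 935 kept their direction and side of the threshold, 11 came to pass the test and 20 changed sign. With FPKM as deposited 15 genes were called. The number was 34 with a pseudocount of 0.1 FPKM, 5 with no filter, 23 with a filter at 5 FPKM, 5 with no intensity trend, 161 after median-of-ratios scaling, 236 after quantile normalization, 149 after TPM rescaling, 225 after length correction and 172 with library weights. Leaving out a library gave 1 to 23 genes. With the filter on the remaining libraries, an alternative chosen after seeing the data, it gave 89, 4 and 74 without cKO replicates 1, 2 and 3 and 2, 2 and 6 without wild type replicates 1, 2 and 3. After median-of-ratios scaling it gave 2 to 154 genes (83, 9 and 154 without cKO replicates 1, 2 and 3), and after length correction 7 to 239 (103 and 239 without cKO replicates 1 and 3, and 7, 43 and 29 without wild type replicates 1, 2 and 3).

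Replicate numbers gave little sign of pairing: same-numbered deviations correlated at -0.01, 0.04 and 0.07. Of the wild type libraries, cKO replicates 2 and 3 correlated best with the same-numbered one, and cKO replicate 1 with replicate 2 (0.03). Values this small do not settle whether the libraries are paired. With the replicate block 2 genes were called, and 25 after scaling, and 0 members in both.

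Members called were 1 after median-of-ratios scaling, quantile normalization, TPM rescaling and library weights, and 2 after length correction. They were 0 to 1 in the fits that left out a library, with Fn1 called without cKO replicate 1 under the filter on the remaining libraries. The members' median was -0.13 with a filter at 5 FPKM, -0.28 after median-of-ratios scaling with or without the replicate block, -0.41 after TPM rescaling, and -0.34 and -0.29 after scaling without cKO replicate 3 and wild type replicate 3. The median of all tested genes moved as well, from 0.08 to 0.10 with the filter at 5 FPKM and to -0.115 after TPM rescaling. The members' median minus that of all tested genes was -0.228 with that filter and -0.296 after TPM rescaling. With FPKM as deposited it was -0.276. Other basement membrane components had 2 calls after median-of-ratios scaling, TPM rescaling, length correction and library weights, 3 after quantile normalization and 0 to 3 without a library. Other integrin ligands had 2 after median-of-ratios scaling and quantile normalization, 3 after length correction (2 lower, and Thbs2 higher), 1 with library weights and 0 to 1 without a library. Matrix proteases had 2 after quantile normalization and 1 after length correction.

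Signs changed in 6 members. Over the fits that left out a library the log2 fold change of Agrn ran from -0.0541 to 0.0512, and the log2 fold change of Sparc from -0.192 to 0.00274, with FPKM as deposited. Agrn stood at 0.0266 without cKO replicate 2 and 0.0512 without wild type replicate 1, under either filter, and after length correction at 0.0126, 0.00836 and 0.0498 without cKO replicate 1, cKO replicate 2 and wild type replicate 1. Itga11 stood at -0.0358 after scaling and -0.0225 after length correction, both without wild type replicate 2. TPM rescaling, where the median of all tested genes was -0.115, gave -0.0432 for Itgb5, -0.0508 for Lama3 and -0.117 for Lamb2. Quantile normalization gave -0.0177 for Lamb2. After scaling Lama3 stood at -0.0338, -0.0213 and -0.00421 without cKO replicate 2, cKO replicate 3 and wild type replicate 2, and Lamb2 at -0.044 and -0.019 without cKO replicate 3 and wild type replicate 3. Sparc stood at 0.00274 without cKO replicate 3, under either filter. The cause was not tested. Depth limits Lamb3, Lamc3, Itgb4 and Itgb6, which rest on few fragments.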
